A study of Mus musculus with 9 samples.

Results

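The lysozymes and lysosomal cathepsins described here are 10 genes of the 55536 in a table of TPM, a relative RNA level scaled by gene length and library total. They were chosen by gene name and are 2 lysozymes (Lyz1, Lyz2), 7 cathepsins (Ctsb, Ctsc, Ctsd, Ctsh, Ctsl, Ctss, Ctsz) and the lysosomal membrane glycoprotein Lamp1. Each name matched 1 row. RNA was sequenced in 9 libraries of GFP+ mouse acute myeloid leukemia (AML) cells sorted from bone marrow, 3 in each of 3 groups. All leukemias were started with the MLL-AF9 fusion in a retrovirus that also carries GFP, so the control genotype has both too. The cells (1000000 per mouse) grew in C57BL/6J recipients aged 6 to 8 weeks that had not been irradiated, so the host kept its own marrow, and were collected on day 18. Cells of the group AML-WT-c-kit- (WT c-kit- below) lacked surface c-kit, a receptor of immature blood cells, and came from leukemias with intact IRF7. Those of AML-WT-c-kit+ (WT c-kit+) carried the receptor. AML-IRF7-/--c-kit+ (the IRF7-/--labelled libraries) stands for c-kit+ cells of leukemias made from IRF7-/- donors, in which exons 2 and 3 of the gene had been replaced. The sources used here do not say whether the 3 libraries of a group came from separate leukemias or recipients, so the p-values measure the spread between these libraries, which may be technical.

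Lysosomes are acidic compartments that break down material taken up from outside or delivered by autophagy, and they are abundant in phagocytes. Cathepsins are their main proteases. They are made as inactive precursors, are carried there mostly by mannose 6-phosphate receptors, and are activated at low pH. Lysozyme cleaves the peptidoglycan of bacterial cell walls and is a classic product of monocytes, macrophages and granulocytes, while LAMP1 lines the lysosomal membrane in nearly all cells.

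Kit and Irf7 were read first as checks of the labels. Kit was at 0.520, 1.19 and 3.03 TPM in WT c-kit-, at 50.7, 58.5 and 51.3 TPM in WT c-kit+, and at 85.5, 70.3 and 85.7 TPM in the IRF7-/--labelled libraries. It was thus lower in the c-kit- group than in either c-kit+ group, as sorted. The sort labels give no order between the c-kit+ groups. Irf7 was at 23.5, 22.3 and 32.3 TPM in WT c-kit-, at 5.31, 3.91 and 3.36 TPM in WT c-kit+, and at 12.8, 5.97 and 7.95 TPM in the IRF7-/--labelled libraries. Irf7 RNA was thus not lower in the libraries labelled IRF7-/- than in WT c-kit+ (log2 difference of 0.89, limma adjusted p = 0.0321). The table has 1 value per gene, so reads from exons outside the replaced part cannot be told from those within it. The Irf7 value therefore can neither bear out nor contradict the label. The authors report that they checked IRF7 expression in their models by qRT-PCR and Western blot. Library totals ran from 987468 to 992231 TPM, and over 13962 expressed genes the libraries of a group correlated at r = 0.973 to 0.984, against at most 0.932 between groups.

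Lyz1 and Lyz2 lie in tandem on mouse chromosome 10 (GRCm38, GENCODE M21), Lyz2 at chr10:117277331-117282321 and Lyz1 at chr10:117287797-117292868, both on the minus strand and 5475 bases apart. Their coding sequences, each 447 bases, differed at 22 bases (95.1% identical), and 16.1% of the 50-base windows of the Lyz1 transcript also occur in the Lyz2 transcript. Reads from those windows cannot be assigned to either gene, so the much lower Lyz1 values are uncertain. The stretch of coding bases 43 to 132 that holds 13 of the differences is shown because it is what tells the RNAs apart, with the differing bases in capitals:
Lyz1: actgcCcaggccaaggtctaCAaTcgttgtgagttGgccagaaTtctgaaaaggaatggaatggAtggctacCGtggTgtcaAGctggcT
Lyz2: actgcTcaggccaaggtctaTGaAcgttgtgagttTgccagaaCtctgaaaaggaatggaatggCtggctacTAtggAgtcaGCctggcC

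Upstream sequence was available for 8 of the 10 genes (RefSeq, GRCm38.p6, 300 bases around the annotated start), and Ctsb and Ctsh had none. It was searched on both strands for the E-box CACGTG, which the lysosomal regulator TFEB binds, for the interferon regulatory factor element (GAAA, any 2 bases, GAAA) and for the ETS factor motif AGGAAGT. These occur in 7.15%, 3.44% and 9.35% of 32851 promoters of the same length. The E-box occurred 4 times in the Lamp1 window, 2 times in that of Ctsd and 1 time in that of Ctsl. The interferon regulatory factor element was found in the windows of Ctss and Lamp1, and AGGAAGT in those of Lyz1, Lyz2, Ctsc and Ctss. Ctsz had none of the 3. A match is a description of the letters and not of a bound site. Stretches of 140 bases that end just before the first annotated base of the gene, in GENCODE M21 or RefSeq, are shown for genes whose levels differ in pattern below, with matches on either strand in capitals (for Lyz2 this base lies upstream of the RefSeq start, and the AGGAAGT match of Ctss runs past the start and is left out): the lysozyme pair (chr10:117292869-117293008 and chr10:117282322-117282461, both minus strand), Ctss (chr3:95526646-95526785, plus strand), Lamp1 (chr8:13159021-13159160, plus strand) and Ctsz (chr2:174439040-174439179, minus strand):
Lyz1: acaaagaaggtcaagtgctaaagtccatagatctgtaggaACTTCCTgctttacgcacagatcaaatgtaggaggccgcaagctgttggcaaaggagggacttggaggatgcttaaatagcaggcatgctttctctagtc
Lyz2: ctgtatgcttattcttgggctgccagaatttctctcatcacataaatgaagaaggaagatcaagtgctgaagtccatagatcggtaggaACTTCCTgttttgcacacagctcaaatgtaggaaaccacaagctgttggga
Ctss: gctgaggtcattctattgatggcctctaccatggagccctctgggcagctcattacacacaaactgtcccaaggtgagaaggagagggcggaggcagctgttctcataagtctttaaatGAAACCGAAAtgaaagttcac
Lamp1: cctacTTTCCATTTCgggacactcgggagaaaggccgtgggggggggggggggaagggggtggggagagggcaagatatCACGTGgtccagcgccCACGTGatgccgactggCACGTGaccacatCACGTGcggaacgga
Ctsz: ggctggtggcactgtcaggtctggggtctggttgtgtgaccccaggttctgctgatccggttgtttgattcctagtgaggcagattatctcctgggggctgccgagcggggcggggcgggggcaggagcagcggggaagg

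Lyz2, the lysozyme of monocytes and macrophages, was the most abundant of the 10 genes in both WT groups and had the largest fall between the c-kit+ groups. It was at 10672, 7234 and 10454 TPM in WT c-kit-, where it was the 3rd, 7th and 3rd most abundant RNA of the library. In WT c-kit+ it was at 2968, 1644 and 2681 TPM, and in the IRF7-/--labelled libraries at 401.2, 317.2 and 460.3 TPM. No library of any group reached the range of another group, and replicate 2 was the lowest of each group. The c-kit+ WT cells had 3.95-fold less than the c-kit- WT cells (log2 fold change of -1.98, SE 0.27, adjusted p = 0.00133), and the IRF7-/--labelled libraries a further 6.05-fold less (-2.60, SE 0.24, adjusted p = 0.000391). Here and below a fold change is of TPM + 1, on the log2 scale unless called a fold, which understates the change of genes at low TPM, and adjusted p-values are limma's with Benjamini-Hochberg adjustment over all genes tested in that comparison. A gene is called where adjusted p is under 0.05 and the log2 fold change is at least 1 in size. In these bulk samples, fewer cells that express a gene and less RNA per cell cannot be told apart.

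Lyz1, the lysozyme known best from Paneth cells of the gut, was near the limit of the table. It was at 2.18, 2.06 and 3.36 TPM in WT c-kit- and at 0.480, 1.51 and 1.96 TPM in WT c-kit+, and in the IRF7-/--labelled libraries it was listed at 0, 0.11 and 0 TPM. The groups did not overlap. The difference between the WT groups did not pass the test (-0.65, 95% interval -1.35 to 0.05, adjusted p = 0.122), the gene fell below the expression filter in the comparison of the c-kit+ groups, and it was called lower in the IRF7-/--labelled libraries than in WT c-kit- (-1.75, adjusted p = 0.000263). That last value depends on the pseudocount and was -4.33 with a pseudocount of 0.1.

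**Figure D1:**
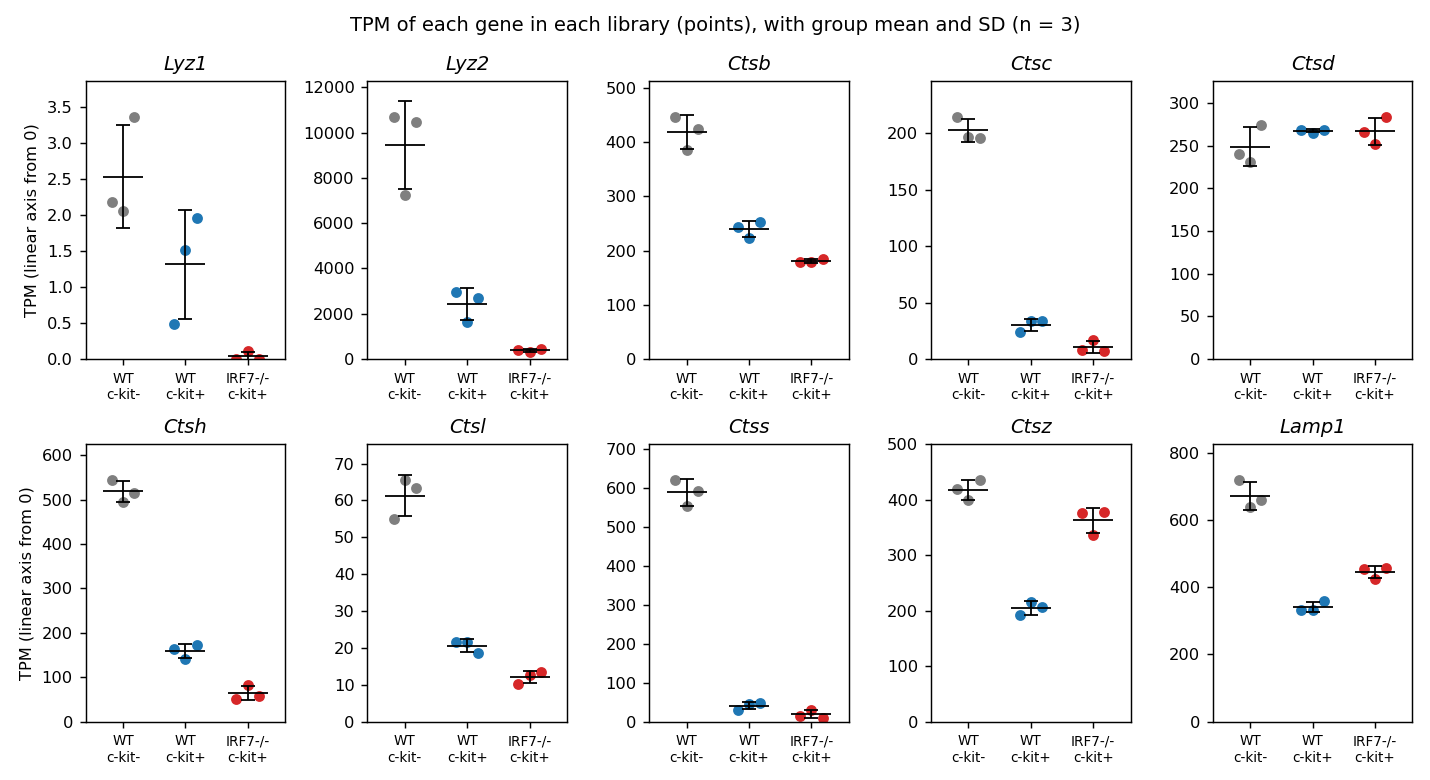
TPM of the 10 genes on linear axes from 0, 1 point per library, with the mean (long bar) and SD (whiskers) of the 3 libraries of each group. Most genes step down from left to right, Ctsz and Lamp1 are lowest in WT c-kit+, and Ctsd is level at group means of 249 to 267 TPM.

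Cathepsin S, C and H had the steepest falls of the cathepsins. Cathepsin S (Ctss), the protease that trims the invariant chain from MHC class II molecules, was at 620.9, 553.1 and 593.1 TPM in WT c-kit-. It was at 30.8, 45.2 and 48.2 TPM in WT c-kit+ and at 15.8, 30.4 and 10.4 TPM in the IRF7-/--labelled libraries. The c-kit- libraries stood far above all others, while replicate 2 of the IRF7-/- label, at 30.35 TPM, came within 1 TPM of the lowest WT c-kit+ library, at 30.83. Ctss was 14.1-fold lower in WT c-kit+ than in WT c-kit- (-3.82, SE 0.16, adjusted p = 1.99e-05). Between the c-kit+ groups it was called lower (-1.20, SE 0.36, adjusted p = 0.0332), a call that did not hold in several repeats. It was lost without WT c-kit+ replicate 2 (adjusted p = 0.0867) or replicate 3 (0.0958), without IRF7-/--labelled replicate 1 (0.0889) or replicate 3 (0.0757, log2 fold change of -0.86), and with no filter on low values (0.0798).

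Cathepsin C (Ctsc), the dipeptidyl peptidase that activates the serine proteases of granules, was at 214.0, 197.0 and 196.0 TPM in WT c-kit- and at 24.1, 33.4 and 33.3 TPM in WT c-kit+. It was at 8.31, 16.7 and 7.37 TPM in the IRF7-/--labelled libraries. No groups overlapped. Its log2 fold change was -2.72 (SE 0.13, adjusted p = 2.58e-05) between the WT groups and -1.47 (SE 0.29, adjusted p = 0.00674) between the c-kit+ groups. Cathepsin H (Ctsh), an aminopeptidase, was at 544.1, 495.5 and 515.6 TPM in WT c-kit-, at 164.7, 141.4 and 172.0 TPM in WT c-kit+, and at 52.2, 83.8 and 58.0 TPM under the IRF7-/- label, again without overlap. It was called lower in both comparisons, at -1.70 (SE 0.09, adjusted p = 2.92e-05) and -1.31 (SE 0.18, adjusted p = 0.00151). Replicate 2 of the IRF7-/- label was the highest of its group for Ctss, Ctsc and Ctsh and the lowest for Lyz2. Without it the falls of Ctsc and Ctsh between the c-kit+ groups were larger, at -1.81 and -1.51.

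Cathepsin L and B moved the same way by less. Cathepsin L (Ctsl), a broad endopeptidase, was the lowest of the 7 cathepsins in both WT groups. It was at 54.9, 65.6 and 63.3 TPM in WT c-kit-, at 21.7, 21.7 and 18.6 TPM in WT c-kit+, and at 10.2, 12.5 and 13.5 TPM in the IRF7-/--labelled libraries. It was called lower in WT c-kit+ than in WT c-kit- (-1.52, SE 0.10, adjusted p = 6.51e-05). Its difference of -0.73 between the c-kit+ groups passed the test (SE 0.12, limma adjusted p = 0.00329) but not the threshold on size. Cathepsin B (Ctsb), which acts as an endopeptidase and as a carboxypeptidase, was at 445.8, 384.9 and 424.8 TPM, then 243.2, 223.9 and 253.6 TPM, then 178.1, 179.3 and 185.2 TPM in the same order of groups. None of these ranges overlapped. Both of its differences were under 1 in size, at -0.80 (SE 0.08, adjusted p = 0.000354) and -0.41 (SE 0.06, adjusted p = 0.00220), and it was called only at -1.20 between the IRF7-/--labelled libraries and WT c-kit- (adjusted p = 1.98e-05).

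Cathepsin Z and Lamp1 were lowest in WT c-kit+. Cathepsin Z (Ctsz, also named cathepsin X), a carboxypeptidase, was at 419.2, 399.5 and 435.8 TPM in WT c-kit- and at 192.4, 216.7 and 207.1 TPM in WT c-kit+. In the IRF7-/--labelled libraries it was at 375.5, 336.9 and 377.5 TPM, above every WT c-kit+ library and below every WT c-kit- library. It fell by 1.02 on the log2 scale between the WT groups (SE 0.07, adjusted p = 6.88e-05), just past the threshold on size, and was at -0.83 and -0.92 with quantile and median-of-ratios scaling, at -0.99 without WT c-kit- replicate 3 and at -0.98 without WT c-kit+ replicate 1. Between the c-kit+ groups it was higher under the IRF7-/- label by 0.82 (1.76-fold, SE 0.07, adjusted p = 0.000296), which is under the threshold on size. The remaining difference from WT c-kit- was -0.20 (95% interval -0.36 to -0.05, adjusted p = 0.0313), and it did not pass with quantile scaling (-0.09, adjusted p = 0.183), with no filter on low values (adjusted p = 0.0590) or without replicate 1 or 3 of WT c-kit- or replicate 1 or 2 of the IRF7-/--labelled libraries (adjusted p of 0.0541 to 0.0781).

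Lamp1 was at 719.1, 638.2 and 658.6 TPM in WT c-kit-, at 333.8, 332.4 and 360.0 TPM in WT c-kit+, and at 454.7, 426.0 and 457.3 TPM in the IRF7-/--labelled libraries. The 3 groups did not overlap. The difference between the WT groups was -0.97 (SE 0.07, adjusted p = 9.99e-05), just short of the threshold on size and past it, at -1.01, without WT c-kit- replicate 2 or without WT c-kit+ replicate 3. Between the c-kit+ groups Lamp1 was higher under the IRF7-/- label by 0.38 (1.30-fold, SE 0.06, adjusted p = 0.00243). All genes in that comparison had a median of 0.12, and relative to it Ctsz was higher by 0.70 and Lamp1 by 0.26.

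Cathepsin D (Ctsd), an aspartic protease and the only member of the 7 cathepsins that is not a cysteine protease, was level. It was at 240.6, 230.8 and 274.5 TPM in WT c-kit-, at 268.1, 265.3 and 268.7 TPM in WT c-kit+, and at 265.6, 251.3 and 283.1 TPM in the IRF7-/--labelled libraries, with all groups overlapping. Its log2 difference was 0.11 (95% interval -0.07 to 0.29, adjusted p = 0.294) between the WT groups and -0.01 (-0.14 to 0.13, adjusted p = 0.949) between the c-kit+ groups, so that changes beyond 0.29 in size lie outside both intervals. With quantile scaling the difference between the WT groups was 0.27 with an adjusted p of 0.0212, and between the c-kit+ groups the sign turned without IRF7-/--labelled replicate 2 (0.04, adjusted p = 0.636). The exact permutation test gave p = 0.4 and 0.9 for these comparisons and p = 0.1 for each of the other genes tested here, the smallest that 3 libraries against 3 allow.

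**Figure D2:**
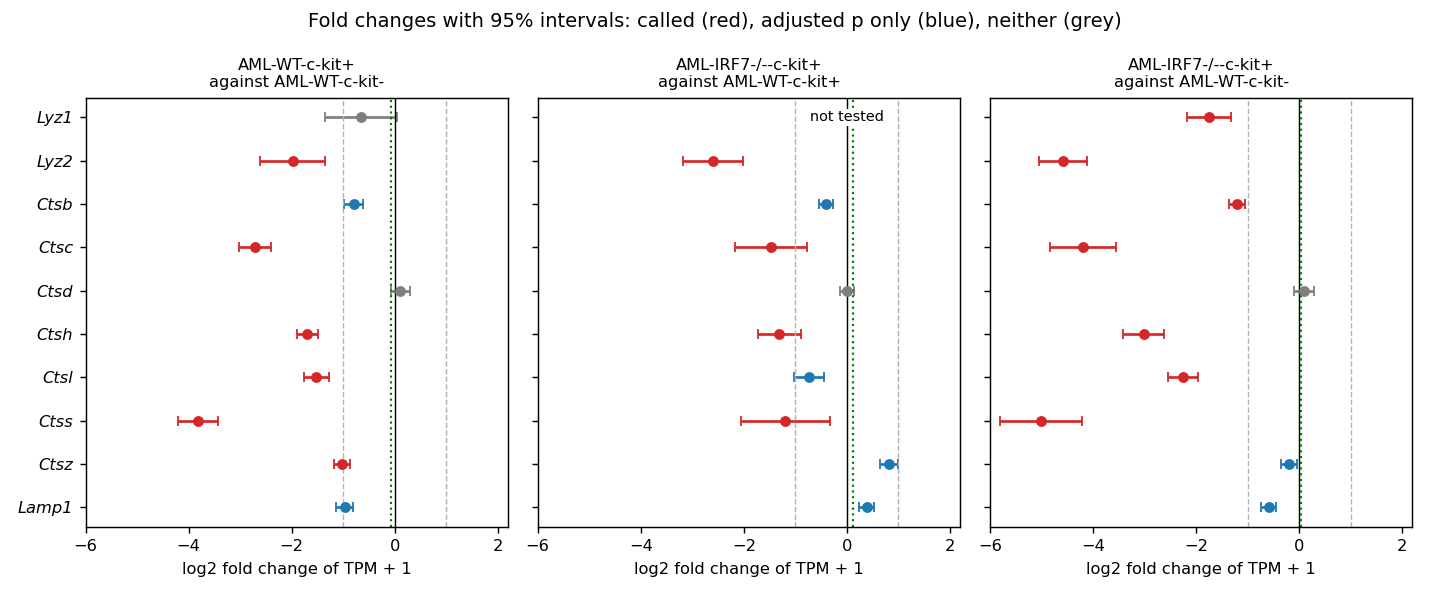
Log2 fold change of TPM + 1 of each gene (point) with its 95% interval in the 3 comparisons, with dashed lines at -1 and 1 and a dotted line at the median of all genes tested. Ctss and Ctsc are farthest left in the comparison of the WT groups, and Ctsz (0.82) and Lamp1 (0.38) are to the right of 0 in the comparison of the c-kit+ groups.

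In WT c-kit+ against WT c-kit-, 6 of the 10 genes were called lower and 0 higher, where 9.61% of the 13261 genes tested were called lower and 4.83% higher. At adjusted p alone 8 passed, all lower (41.6% of all genes, 27.6% lower and 14.0% higher), and 9 had groups that did not overlap (54.4% of all genes). In the IRF7-/--labelled libraries against WT c-kit+, 9 genes passed the filter, 4 were called lower (Lyz2, Ctsc, Ctsh and Ctss) and 0 higher, against 5.39% lower and 6.30% higher of 13238 genes. There, 8 passed at adjusted p alone (48.0% of all genes), 6 of them lower (16.1% of all genes) and 2 higher (31.9%), and the same number had groups that did not overlap (59.1% of all genes). Against WT c-kit-, the IRF7-/--labelled libraries had 7 genes called lower and 0 higher, beside 11.9% and 8.40% of 13510 genes, with 9 at adjusted p alone, all lower (59.4% of all genes, 28.7% lower and 30.7% higher), and 9 without overlap (67.1%). There Ctss was 32.4-fold lower, Lyz2 23.9-fold, Ctsc 18.2-fold, Ctsh 8.07-fold and Ctsl 4.77-fold, while Lamp1 was at -0.59 (adjusted p = 0.000306). These comparisons share groups and are not independent. The median log2 fold change of the members tested was -1.27, -0.73 and -2.004 in the 3 comparisons, and the median over all genes tested was -0.08, 0.12 and 0.03.

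The total of the 7 cathepsins was lower in both c-kit+ groups, and its makeup differed between them. Summed TPM was 2456 ± 114 (SD, n = 3) in WT c-kit-, 965 ± 31.8 in WT c-kit+ and 917 ± 15.7 in the IRF7-/--labelled libraries. The libraries of the c-kit+ groups were close, at 945 to 1001 TPM and at 905.6 to 935.1 TPM, and the difference of these sums was not tested. Ctss made up 24.0% ± 0.41 of the total in WT c-kit-, 4.28% ± 0.88 in WT c-kit+ and 2.06% ± 1.14 under the IRF7-/- label. Ctsz went from 17.0% ± 0.47 to 21.3% ± 1.36 and 39.6% ± 2.33, and Ctsd from 10.1% ± 0.77 to 27.7% ± 0.80 and 29.1% ± 1.37. Ctsh made up 21.1% ± 0.44, 16.5% ± 1.38 and 7.05% ± 1.87. A share depends on the other genes, and that of Ctsd differed between the WT groups at a level TPM.

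**Figure D3:**
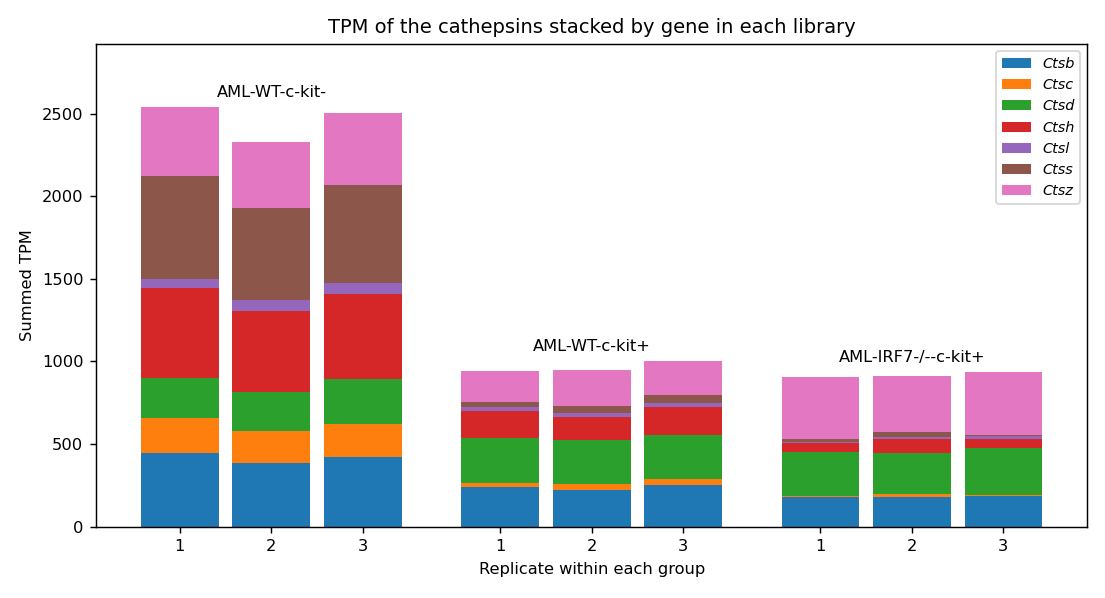
Summed TPM of the 7 cathepsins in each of the 9 libraries, stacked by gene from 0. The total is 2326 to 2540 TPM in WT c-kit- and at most 1001 TPM in both c-kit+ groups, and Ctsz and Ctsd make up most of it in the IRF7-/--labelled libraries.

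By TPM, which is per length, Lyz2 led in WT c-kit-, followed by Lamp1, Ctss, Ctsh, Ctsb, Ctsz, Ctsd, Ctsc, Ctsl and Lyz1, and of these neighbours only Ctsb and Ctsz had overlapping libraries. In WT c-kit+ the order was Lyz2, Lamp1, Ctsd, Ctsb, Ctsz, Ctsh, Ctss, Ctsc, Ctsl and Lyz1, with overlap between Ctss and Ctsc. In the IRF7-/--labelled libraries it was Lamp1, Lyz2, Ctsz, Ctsd, Ctsb, Ctsh, Ctss, Ctsl, Ctsc and Lyz1. There Lamp1, Lyz2 and Ctsz overlapped with their neighbours, as did Ctss, Ctsl and Ctsc. Ctss thus went from the 3rd to the 7th place between the WT groups and stayed there under the IRF7-/- label.

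The other genes lie apart on GRCm38 (GENCODE M21). On the plus strand are Ctss (chr3:95526786-95556403), Ctsc (chr7:88278085-88310888), Lamp1 (chr8:13159161-13175338), Ctsh (chr9:90054152-90076089) and Ctsb (chr14:63122462-63145923). On the minus strand are Ctsz (chr2:174427493-174439039), Ctsd (chr7:142375911-142388038) and Ctsl (chr13:64359337-64370890). TPM are given per gene, over whole gene models, so exons and UTRs are not separated. Of the annotated genes that overlap a member, Gm26522, a long noncoding RNA on the strand opposite to Ctsc, was at a mean of 4.43 TPM in WT c-kit- against 0.527 TPM in WT c-kit+ and 0.0400 TPM under the IRF7-/- label. Hmgb1-ps5, a pseudogene inside Ctss, was at 4.77, 0.313 and 0.380 TPM. Gm49369, which shares 6757 bases and the strand with Ctsd, was listed at 0 in every library. Nelfcd and Fdft1, on the strands opposite to Ctsz and Ctsb, overlap them by 10 and 774 bases and were at 47.7 to 54.4 and 10.7 to 13.03 TPM. Grtp1, on the strand opposite to Lamp1, overlaps it by 3317 bases and was at means of 1.74, 0.653 and 1.80 TPM. The counting is not stated to use strand, so reads in such overlaps cannot be assigned.

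Among the other genes of the lysosome, 8 lists with 100 genes were read, of which 99 are in the table. In WT c-kit+ against WT c-kit-, 27 of the 89 genes tested (30.3%) were called lower and 5 (5.62%) higher, beside 9.61% and 4.83% of all genes, with a median of -0.32. In the IRF7-/--labelled libraries against WT c-kit+, 4 (4.49%) were called lower and 5 (5.62%) higher, near the 5.39% and 6.30% of all genes, with a median of 0.18 beside 0.12 for all genes. At adjusted p alone 42 (47.2%) were higher and 11 (12.4%) lower, beside 31.9% and 16.1% of all genes. Against WT c-kit- 22 (24.7%) were called lower and 7 (7.87%) higher, beside 11.9% and 8.40% of all genes, with a median of -0.07.

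Of the 5 other cathepsins tested, Ctsg, the serine protease of primary granules, went the opposite way to Lyz2 and Ctss. It rose from 408 ± 62.8 TPM (SD, n = 3) in WT c-kit- to 1311 ± 321 in WT c-kit+ and 4017 ± 592 in the IRF7-/--labelled libraries, with log2 fold changes of 1.67 (adjusted p = 0.000639) and 1.63 (adjusted p = 0.000894). Ctsa, a serine carboxypeptidase that also protects lysosomal sialidase, was called lower in WT c-kit+ (-1.70, adjusted p = 5.37e-05) at 171 ± 20.4 against 556 ± 41.6 TPM. Between the c-kit+ groups it was higher by 0.75 (adjusted p = 0.000994), the direction of Ctsz. The other 2, Ctsk and Ctsw, did not pass the filter. Between the c-kit+ groups 3 of 5 (60%) were higher at adjusted p alone and 0 lower, beside 31.9% and 16.1% of all genes. The median of the 5 was 0.43 there. Between the WT groups it was -0.15 and ran from -0.49 with a filter of 5 TPM to 0.01 with quantile scaling. None of the 6 other lysozyme family genes passed the filter.

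Of the cathepsin inhibitors, 7 of 10 were tested. Cystatin C (Cst3), the main secreted inhibitor of cysteine cathepsins, was called lower in WT c-kit+ (-1.39, adjusted p = 4.16e-05) at 517 against 1352 TPM and was at 800.2 TPM under the IRF7-/- label. Cystatin F (Cst7), an inhibitor that acts inside lysosomes on cathepsin C among others, was called higher under the IRF7-/- label (1.501, SE 0.21, adjusted p = 0.00178), at 126 ± 18.8 against 44.6 ± 11.8 TPM in WT c-kit+. The cytosolic stefin Stfa2l1 was called lower there (-3.46, SE 0.44, adjusted p = 0.00123), at 9.77 ± 6.84 against 103 ± 18.7 TPM. Stfa2 was called lower in both comparisons (-1.85 with adjusted p = 0.0101, and -1.72 with adjusted p = 0.0218), the latter lost with no filter on low values and without WT c-kit+ replicate 1 or 3 or IRF7-/--labelled replicate 3. Stfa3 was called lower in WT c-kit+ (-1.35, adjusted p = 0.0344), a call lost in 7 of 14 repeats, among them those without any single WT c-kit- library and without WT c-kit+ replicate 1 or 2. Stfa1, named after its values were seen, was called higher in WT c-kit+ (1.10, adjusted p = 0.0291), a call lost in 5 of 14 repeats, which were no filter on low values, all 9 libraries in 1 fit, and leaving out WT c-kit- replicate 1 or WT c-kit+ replicate 2 or 3. These stefins are near-identical copies that can share reads. Over the list 1 gene (14.3%) was called higher and 3 (42.9%) lower between the WT groups, beside 4.83% and 9.61% of all genes. The list median there was -0.80, or -0.50 with no filter on low values. Between the c-kit+ groups 1 (14.3%) was called higher and 2 (28.6%) lower, beside 6.30% and 5.39% of all genes. The list median of -0.54 between the c-kit+ groups rested on single libraries. It turned to 0.10 without IRF7-/--labelled replicate 1 and was -0.98 without replicate 2, and it was -0.86 without WT c-kit+ replicate 1 and -0.07 without replicate 3.

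All 13 other lysosomal membrane proteins were tested. Between the WT groups 6 (46.15%) were called lower and 1 (7.69%) higher, beside 9.61% and 4.83% of all genes (list median -0.83). Between the c-kit+ groups 0 were called in either direction (list median 0.15), beside 5.39% lower and 6.30% higher of all genes. At adjusted p alone 6 (46.15%) were higher there and 1 (7.69%) lower, beside 31.9% and 16.1% of all genes. Slc11a1, a metal transporter of phagocyte lysosomes (-3.08, adjusted p = 0.000174), and Cd68, the macrophage sialomucin (-2.01, adjusted p = 7.55e-05), were lower in WT c-kit+, while Cd63 was higher (3.58, adjusted p = 0.000110), at 396 against 34.1 TPM. With quantile and median-of-ratios scaling 3 and 4 instead of 6 were called lower between the WT groups, and the median between the c-kit+ groups was 0.07 and 0.04. Without WT c-kit+ replicate 2 or 3, 1 was called higher between the c-kit+ groups. Lamp2, the close relative of Lamp1, was at means of 155, 142 and 156 TPM and did not pass in any comparison (adjusted p of 0.172 to 0.912), and it was chosen for mention after its values were seen.

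Of the 38 other hydrolases and their activators, 13 (34.2%) were called lower and 1 (2.63%) higher in WT c-kit+ against WT c-kit-. These shares stand beside 9.61% and 4.83% of all genes, and the list median was -0.34. With quantile scaling 2 were called higher and the median was -0.18. The reductase Ifi30 (-3.44, adjusted p = 7.95e-06), the carboxypeptidase Scpep1 (-2.88, adjusted p = 3.25e-05) and prosaposin (Psap, -2.88, adjusted p = 8.84e-06), the precursor of the saposins, had the largest falls. Between the c-kit+ groups 3 (7.9%) were called higher and 1 (2.63%) lower, beside 6.30% and 5.39% of all genes. At adjusted p alone 24 (63.2%) were higher and 4 (10.5%) lower, beside 31.9% and 16.1% of all genes. With quantile or with median-of-ratios scaling 19 were higher and 6 lower. The list median was 0.35 (0.26 and 0.23 with these scalings), beside 0.12 for all genes. The acid phosphatase Acp5 (1.99, adjusted p = 0.000278) and the GM2 activator Gm2a (1.97, adjusted p = 0.000154) were higher under the IRF7-/- label. Against WT c-kit- 3 (7.9%) were called higher and 11 (28.95%) lower, beside 8.40% and 11.9% of all genes.

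Of 16 subunits of the proton pump that acidifies lysosomes, 1 (6.25%, beside 9.61% of all genes) was called lower between the WT groups, Atp6v0a1 (-1.499, adjusted p = 2.82e-05). At adjusted p alone 8 (50%) were lower there and 2 (12.5%) higher, beside 27.6% and 14.0% of all genes. With quantile or median-of-ratios scaling 5 were lower and 3 higher. Between the c-kit+ groups 0 were called by limma (6.30% of all genes higher, 5.39% lower). At adjusted p alone 5 (31.25%) were higher there and 2 (12.5%) lower as deposited, beside 31.9% and 16.1% of all genes. With quantile or median-of-ratios scaling 3 were higher and 4 lower. The subunits' median of 0.02 between the c-kit+ groups turned to -0.07 and -0.10 with these scalings and was between -0.01 (without IRF7-/--labelled replicate 3) and 0.09 (without WT c-kit+ replicate 3) with a library left out. Of 6 genes of the sorting route, the mannose 6-phosphate receptor Igf2r was called higher in WT c-kit+ (2.49, adjusted p = 0.00323) and lower under the IRF7-/- label (-1.81, adjusted p = 0.00142), at means of 1.32, 11.2 and 2.39 TPM. Of the 4 related transcription factors Tfeb, Tfe3, Mitf and Tfec, which bind the E-box searched above, Tfeb (-1.31, adjusted p = 0.000179), Tfe3 (-1.54, adjusted p = 0.000210) and Mitf (-1.14, adjusted p = 0.000850) were called lower in WT c-kit+. Tfec was instead higher there at adjusted p alone, and Mitf did not pass a filter of 5 TPM. None of the 4 was called between the c-kit+ groups, where Tfeb was lower by 0.78 (adjusted p = 0.00441) and Tfec higher by 0.65 (adjusted p = 0.000954). Against WT c-kit-, the IRF7-/--labelled libraries had 3 of the 4 called lower. Tfec was called higher in that comparison (1.003), a call lost in 5 of 14 repeats.

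**Figure D4:**
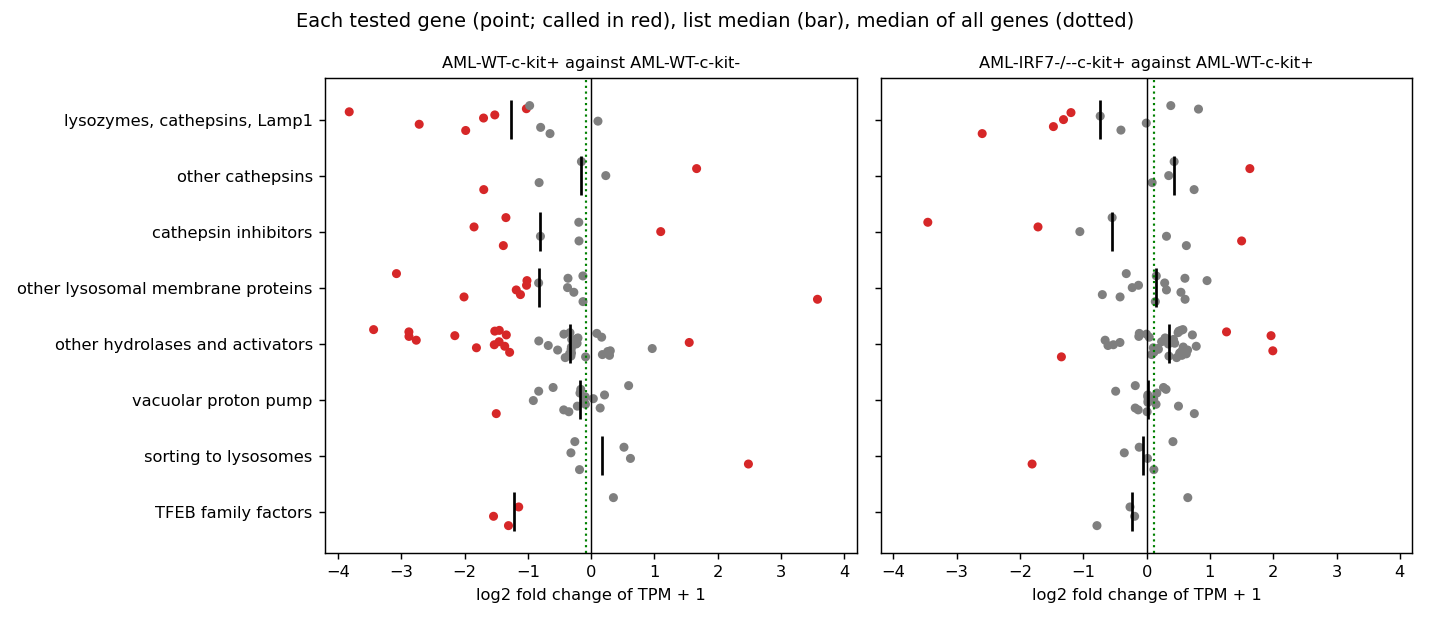
Log2 fold change of TPM + 1 of every gene tested in 7 lists of lysosome genes and of the members (top row), in WT c-kit+ against WT c-kit- (left) and the IRF7-/--labelled libraries against WT c-kit+ (right), with list medians as bars. On the right the members' median is -0.73 and that of the 38 other hydrolases and activators 0.35.

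Markers of other blood cells were read beside these results, and their part in them was not tested. The summed level of 7 monocyte markers was 4915 to 6122 TPM in WT c-kit-, 2213 to 2596 TPM in WT c-kit+ and 2679 to 3338 TPM under the IRF7-/- label, all 7 being detected at 1 TPM or more in each group. Of these, Csf1r (means of 399, 50.9 and 28.9 TPM) and Cx3cr1 (126, 11.5 and 2.55 TPM) had the order of groups of Ctsc and Ctss, and so did F13a1 in its means (911, 199 and 193 TPM), with overlapping c-kit+ libraries. The other 4 and the sum were higher under the IRF7-/- label than in WT c-kit+, with Ccr2 at 275, 19.0 and 28.9 TPM, Ms4a6c at 782, 153 and 203 TPM, Fcgr4 at 11.8, 13.3 and 44.7 TPM and Ly6c2, most of the sum, at 2967, 1994 and 2455 TPM. The 9 mature neutrophil markers, S100a8, S100a9, Camp and Ngp foremost, summed to 6153 to 30620 TPM, 56725 to 110835 TPM and 1603 to 2528 TPM in the same order. The sum was highest in WT c-kit+, while Mmp8, Mmp9, Retnlg and Cxcr2 had their highest means in WT c-kit-. Mmp8 was at means of 74.6, 4.68 and 1.11 TPM and Mmp9 at 121, 56.9 and 4.13 TPM. The libraries of WT c-kit- and WT c-kit+ overlapped for Mmp9 (46.5 to 262.4 and 26.8 to 73.8 TPM) and Cxcr2 (4 to 20.7 and 5.48 to 8.44 TPM). The 9 mature macrophage markers summed to 105 to 131, 36.3 to 58.1 and 62.6 to 84.8 TPM, most of it Adgre1, with Vsig4, Marco and Siglec1 under 1 TPM in each group. C1qa, C1qb and C1qc were instead lowest in WT c-kit-, at means of 0.567, 0.930 and 0.780 TPM. Their means were highest in WT c-kit+ (2.87, 3.77 and 2.67 TPM), ahead of the IRF7-/- label (1.43, 2.02 and 1.01 TPM). For C1qc the IRF7-/--labelled libraries (0.51 to 1.75 TPM) overlapped those of WT c-kit+ (1.55 to 3.36 TPM) and of WT c-kit- (0.71 to 0.88 TPM). Over the 3 groups, Cd163 was at means of 32.8, 4.54 and 6.42 TPM and Mrc1 at 1.81, 0.980 and 0.430 TPM. T cell markers summed to at most 4.69 TPM and erythroid markers to at most 17.4 TPM. B cell markers summed to 26.4 to 38.1 TPM, nearly all Cd79b, with Pax5 and Ms4a1 under 1 TPM, and endothelial and stromal markers to 39.5 to 120 TPM, mostly Pecam1, with Cdh5 and Kdr under 1 TPM. Of the latter list, Pdgfrb (means of 2.54, 1.24 and 13.6 TPM) and Cxcl12 (0.470, 0.203 and 1.34 TPM) were highest under the IRF7-/- label. Col1a1 and Col1a2 had means under 1 TPM in each group.

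The genes most like each member over the 9 libraries, by Pearson's r of log2(TPM + 1) among 11064 genes, are given as a description. The 9 points are 3 groups of 3 libraries, so r mostly reflects the order of the groups, and the libraries share their totals. Ctsc was followed most closely by Cx3cr1, Apba1 and D1Ertd622e (r of 0.998 to 0.999), Ctss by Ass1, Plxnb2 and Irf5 (0.996 to 0.998) and Ctsh by Naaa, Fam129a and Osbpl9 (0.997 to 0.998). For Ctsb they were Olfm1, D17Wsu92e and Smad2 (0.996 to 0.997) and for Ctsl they included Gm33858 and Slc26a11 (0.993 to 0.994). Lyz2 was matched by Tnfaip3, Gm9733 and Mbp (0.991) and Lyz1 by Gm43830, Cd22 and Ighv1-34 (0.971 to 0.985). Ctsz was closest to Adam15, Klhl2 and Pip5k1c (0.990 to 0.995), with Adam15 at means of 106, 42.9 and 89.7 TPM, and Lamp1 to Tmem43, Ggh and Fcer1g (0.993 to 0.995). Ctsd had no match above 0.927, that of Scrib, before Comtd1 and Chst15 (0.906). Among the members, Ctsc and Ctss were the most alike (0.992), Ctsz and Lamp1 had r of 0.887, and Ctsz and Lyz2 had r of 0.110.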

How the data were processed

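The values are TPM, which the authors made from their reads and deposited as a single table of 55536 genes. This unit is taken from the library totals, nearly the same in all 9. The aligner and genome build are not given in the sources used here. All 9 value columns were matched to a sample by name. TPM keep no depth, so no counting intervals are given, and the precision is known only from 3 libraries per group. TPM are relative, so abundant genes that rise lower all others.

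limma (version 3.58.1, R 4.3.3, lmFit and eBayes with trend) was run on log2(TPM + 1) for each pair of groups on its own 6 libraries, keeping genes that reached 1 TPM in 3 or more of these, and was tested on simulated data. Exact permutation tests were two-sided. Coordinates and transcripts are from GENCODE M21 (GRCm38), in which 55450 gene identifiers were found, and promoters from RefSeq. Named are all members, Irf7 and Kit, up to 3 called genes per list and comparison with the largest changes, and the 3 genes most like each member. A few genes that this rule names are not reported here. Members and lists were chosen with earlier results of these data known. Alternatives were other filters, pseudocounts, scalings and designs, and leaving out each library.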

Additional observations from a re-analysis of the deposited data

How the results depend on the processing

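Over all repeats of single members' fold changes, 392 kept their direction and their call, 9 lost a call, 2 gained one and 1 turned its sign. The 9 are 4 for Ctsz between the WT groups and 5 for Ctss between the c-kit+ groups, and the 2 are for Lamp1 between the WT groups. The sign turned for Ctsd between the c-kit+ groups, which ran from -0.0492 to 0.0365 with a library left out. Without a threshold on size, 5519 instead of 1916 genes passed between the WT groups, 6357 instead of 1548 between the c-kit+ groups, where 8 instead of 4 members passed, and 8023 instead of 2738 between the IRF7-/--labelled and the WT c-kit- libraries, as this rule is wider by construction. A filter of 5 TPM tested fewer genes and called 1015 between the c-kit+ groups. Members called ranged over 5 to 7, 3 to 4 and 7 to 7 with a library left out.
With the replicate number as a block (replicate block), 1950, 1549 and 2749 genes and 6, 4 and 7 members were called. The numbers were not taken to pair the libraries: the correlations of same-numbered deviations ran from -0.07 to 0.24, and between the WT groups not every library correlated best with its own number. Among the IRF7-/--labelled libraries, the same-numbered one did correlate best with each WT library, at r of 0.02 to 0.10. A weak link between libraries of the same number was not tested. Tests on read counts were not run, since the table holds TPM.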
